A study of Mus musculus with 18 samples.

Results

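A set of 10 genes from a stretch of 1.5 Mb of mouse chromosome 9 (GRCm39) was followed in all 18 mammary tumors of the series: Endod1, Cwc15, Amotl1, Fut4, Ankrd49, Mre11a, Panx1, Med17, Taf1d and Smco4. These 10 genes, of 57126 in the table, were chosen by their CPM in each tumor over the 18-tumor median, for which 1 tumor stood far above the others, so their levels in that tumor are a description and carry no test. RNA was sequenced from 7 MaP R172H/-, 5 MaP R245W/- and 6 MaP -/- tumors of female F1 hybrids of BALB/c and C57BL/6J mice. The tumors followed an intraductal injection of adenovirus with Cre recombinase (Ad-Cre), which removed the wild-type Trp53 cDNA in ductal epithelium. Ductal epithelium thus carried either p53 R172H or p53 R245W with no second Trp53 allele, or no Trp53 at all, and cells that the virus did not reach still expressed wild-type p53. The mutant tumors YZ2, YZ6, YZ10, JM1233, JM1564 and RM0014 also carried Rosa26LSL-TdTomato/+. The MaP -/- tumors came from 4 mice, with JM663-T1 and JM663-T2 from 1 mouse and JM833-T1 and JM833-T2 from another. Every MaP R172H/- library was read on another instrument than the rest, so for this group the effects of platform and genotype cannot be told apart. Total deposited counts per tumor ran from 23113578 to 37365062, and tumor JM1126, on which most of the values below turn, had 36998374.

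The genes of the block do unrelated work in the cell. Amotl1 (angiomotin-like 1) is a scaffold of cell junctions and the actin cytoskeleton that binds the coactivators YAP and TAZ and is part of Hippo signalling, which restrains growth of epithelia. Mre11a encodes the nuclease that, with Rad50 and Nbn, finds and trims broken DNA ends and helps to activate the kinase Atm. Endod1 encodes a protein with an endonuclease domain. Cwc15 belongs to the part of the spliceosome that acts with Prp19, Med17 is a head subunit of Mediator, which links transcription factors to RNA polymerase II, and Taf1d is a subunit of the selectivity factor that brings RNA polymerase I to ribosomal DNA. Fut4 adds fucose to glycans and makes the Lewis x antigen on myeloid and other cells, and Panx1 forms membrane channels that release ATP. Ankrd49 encodes an ankyrin repeat protein and Smco4 a small membrane protein.

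All 10 genes were highest in JM1126, a MaP R245W/- tumor that the study's histology classed as a sarcoma. Levels are CPM (reads of a gene scaled to a common library size) on TMM-scaled library sizes, and a fold is the CPM of a tumor over the median of the 18 tumors. In JM1126 the folds ran from 5.64 for Panx1 to 22.9 for Fut4, and the level exceeded that of the next tumor by 2.09-fold for Panx1 to 15.1-fold for Fut4. The median of the 10 folds was 8.17 in JM1126, and in the other 17 tumors it lay between 0.767 in JM833-T2 and 1.43 in JM663-T2. At least a 2-fold level was reached by 10 of the 10 genes in JM1126, against 12% of the 16393 genes with a median of at least 1 CPM, while 12.2% of those genes were at least 2-fold below their median there. None of the 10 was at least 2-fold below it. On library sizes from total counts, without TMM, 8.86% of genes were at least 2-fold above and 17.3% at least 2-fold below, the median log2 ratio of all genes in JM1126 shifted from -0.01 to -0.25, and all 10 genes were still at least 2-fold above. Together the 10 genes took 0.806% of the counts of JM1126 and between 0.0721% and 0.118% of the counts of any other tumor.

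Amotl1, the most abundant of the 10 in CPM, was counted at 3906 CPM in JM1126, from 122397 estimated reads. The other 4 MaP R245W/- tumors had 202 CPM (JM1233), 267 CPM (RM0014), 332 CPM (JM1133) and 379 CPM (JM1564). MaP R172H/- tumors ran from 259 to 419 CPM with a median of 328 CPM, and MaP -/- tumors from 168 to 383 CPM with a median of 301 CPM. Apart from JM1126 the 3 groups overlapped. Amotl1 lies on the minus strand at chr9:14453262-14556352.

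Mre11a was counted at 405 CPM in JM1126, 8.23-fold its median. The other MaP R245W/- tumors had 39.2 CPM (RM0014), 51.7 CPM (JM1133), 53.7 CPM (JM1233) and 56.0 CPM (JM1564). The range was 37.2 to 65.3 CPM in MaP R172H/- tumors, with a mean of 47.2 ± 8.64 CPM (SD, n = 7), and 39.6 to 69.1 CPM in MaP -/- tumors, with a mean of 52.3 ± 10.4 CPM (SD, n = 6). Mre11a was the steadiest of the 10 genes outside JM1126, with a 1.86-fold range over 17 tumors, and the groups overlapped. It lies on the plus strand at chr9:14695512-14749335, and its first bases overlap those of Ankrd49 on the other strand.

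Fut4 showed the largest fold, with 196 CPM in JM1126 against 4.38 CPM (JM1564), 9.45 CPM (RM0014), 10.3 CPM (JM1133) and 12.9 CPM (JM1233) in the same group. MaP R172H/- tumors had 4.66 to 10.1 CPM (median 7.32 CPM) and MaP -/- tumors 5.04 to 13.0 CPM (median 8.85 CPM). Fut4 was thus low in 17 tumors, whose groups overlapped, and at a moderate level in 1. Fut4 lies on the minus strand at chr9:14659616-14663689.

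Endod1 was counted at 1267 CPM in JM1126, and at 42.4 CPM (JM1564), 57.0 CPM (JM1233), 72.5 CPM (RM0014) and 77.4 CPM (JM1133) in the rest of the group. Its values were 44.8 to 249 CPM in MaP R172H/- tumors (median 78.0 CPM) and 32.1 to 132 CPM in MaP -/- tumors (median 53.7 CPM). The 249 CPM belonged to YZ11, the next highest tumor, which stood apart from the other MaP R172H/- tumors. Endod1 lies on the minus strand at chr9:14265286-14292803.

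Cwc15 reached 745 CPM in JM1126, and 68.0 CPM (RM0014), 77.3 CPM (JM1233), 85.1 CPM (JM1564) and 94.1 CPM (JM1133) in the other tumors of that genotype. Of the 7 MaP R172H/- tumors, 6 lay between 78.6 and 81.0 CPM and YZ7 had 130 CPM. MaP -/- tumors ran from 48.0 to 107 CPM with a median of 71.9 CPM. Cwc15 lies on the plus strand at chr9:14411829-14421920, back to back with Kdm4d.

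The remaining 5 genes were likewise highest in JM1126. Taf1d stood at 2421 CPM in JM1126 and between 144 CPM (YZ4) and 632 CPM (JM1133) elsewhere. Med17 was at 283 CPM in JM1126 and at 36.3 to 70.0 CPM in the others. Ankrd49 was at 204 CPM against 16.0 to 43.5 CPM, Panx1 at 66.0 CPM against 3.93 to 31.6 CPM, and Smco4, the least abundant, at 25.4 CPM against 1.21 to 6.41 CPM. JM1126 did not overlap any other tumor for any of the 10. Smco4 rested on 797 estimated reads in JM1126, and the other 9 genes on 2068 or more.

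**Figure D1:**
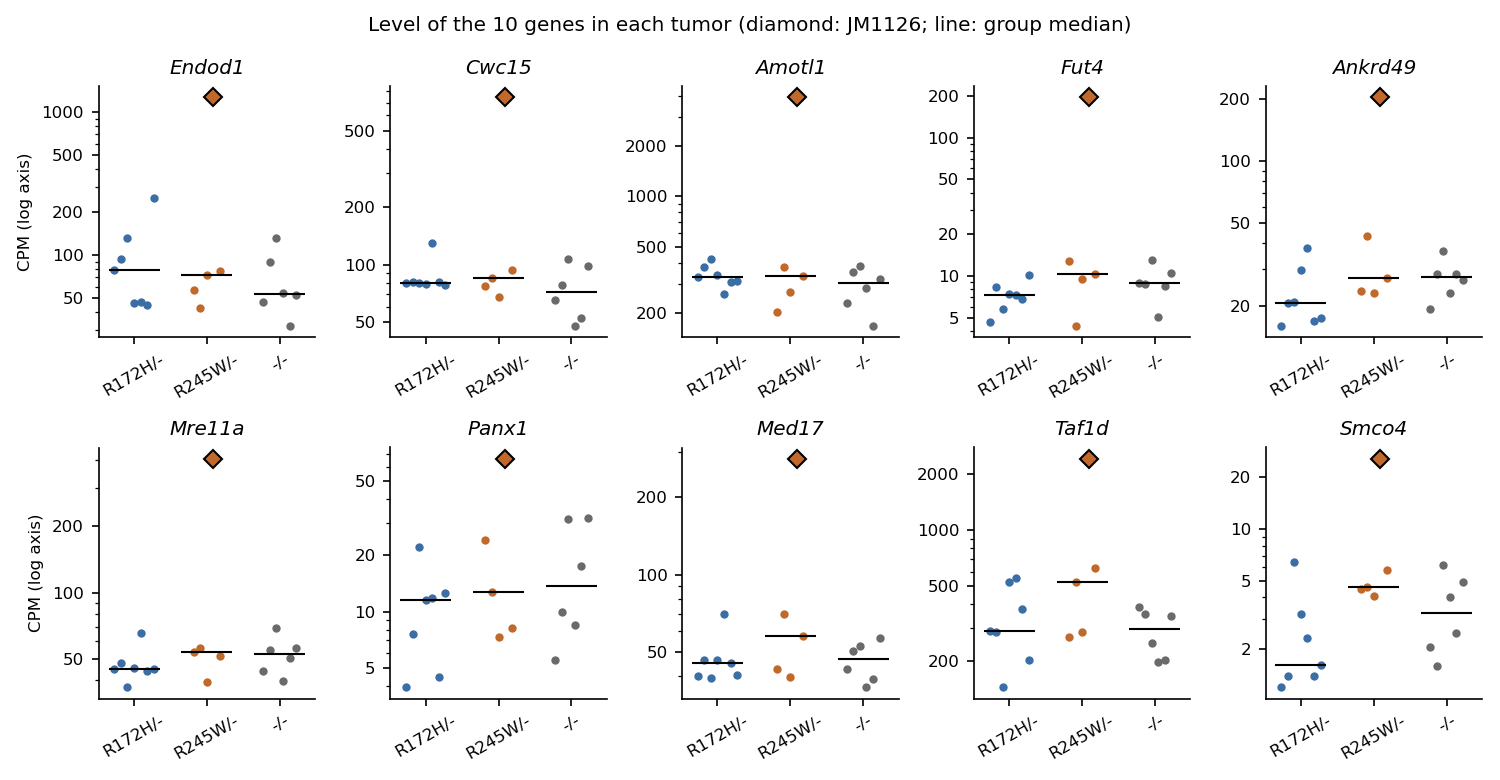
CPM of each of the 10 genes (log axis) in the 7 MaP R172H/-, 5 MaP R245W/- and 6 MaP -/- tumors, 1 point a tumor, with a line at the group median. JM1126, the diamond, is the highest point of every panel, at 3906 CPM for Amotl1 and 405 CPM for Mre11a.

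Levels of different genes can be compared only per length of exon. The length used was that of all annotated exons of a gene merged, which can exceed that of the transcript expressed. For Taf1d it was 8980 bases, in a gene at chr9:15217502-15228293. The order of the genes by this measure thus depends on the annotation. At the 18-tumor median the genes differed widely by it. This median was 35.3 CPM per kb of exon for Taf1d, 32.1 for Amotl1, 29.1 for Cwc15, 13.6 for Endod1 and 1.06 for Smco4. In JM1126 Amotl1 was at 387 CPM per kb, and Cwc15, Taf1d and Endod1 followed closely together at 271, 270 and 267 CPM per kb. By this measure Endod1, below Cwc15 and Taf1d at the median, was level with them there, and Smco4 was again the lowest at 7.45 CPM per kb.

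The bases upstream of 1 start of each of the 4 genes with the largest folds are shown so that genes high in the same tumor can be compared in the letters next to their starts. They were read from GRCm39 with the GENCODE M39 annotation, each 5′ to 3′ on the strand of its gene, and end 1 base before the first start within 500 bases of the main one. For Cwc15 the whole gap of 50 bases to the start of Kdm4d is given, at chr9:14411779-14411828. Amotl1 has several annotated starts, and the one used, next to that of its main transcript, lies 29.6 kb inside the span of the gene, so these bases are not those upstream of its outermost start. Apart from the gap at Cwc15 the stretches are 150 bases long, for Endod1 chr9:14292804-14292953, for Amotl1 chr9:14526780-14526929 and for Fut4 chr9:14663690-14663839, all on the minus strand. Capitals mark a match, on either strand, to 1 of 8 short motifs.
Fut4: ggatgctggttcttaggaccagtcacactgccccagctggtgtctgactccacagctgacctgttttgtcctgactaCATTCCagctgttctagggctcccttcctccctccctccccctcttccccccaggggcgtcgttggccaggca
Endod1: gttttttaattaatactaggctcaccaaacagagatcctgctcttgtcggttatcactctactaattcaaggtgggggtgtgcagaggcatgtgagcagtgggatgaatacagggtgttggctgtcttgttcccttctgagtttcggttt
Amotl1: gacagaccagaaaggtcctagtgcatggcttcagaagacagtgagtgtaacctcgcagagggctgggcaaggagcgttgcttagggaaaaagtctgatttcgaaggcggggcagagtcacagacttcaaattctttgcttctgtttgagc
Cwc15: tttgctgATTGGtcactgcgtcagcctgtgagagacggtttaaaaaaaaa

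No motif was shared among them. The motifs were the CCAAT box (CCAAT), the GC box (GGGCGG), the ETS core (CCGGAAG), the TATA box (TATAAA), the TEAD core (GGAATG), the AP-1 site (TGANTCA), the E-box (CACGTG) and the NRF1 core (GCGCATGCG), and they do not contain each other. Fut4 holds 1 TEAD core, a motif found in 7.38% of 14831 windows of the same length upstream of protein-coding genes without annotated exons in them. The gap before Cwc15 holds a CCAAT box, present in the last 50 bases of 11.1% of those windows (27.1% at their full length), and the windows of Endod1 and Amotl1 hold none of the 8. Of the 6 members with a window free of exons, only Med17 also held a match, with 1 ETS core (3.37% of windows) and 1 E-box (3.72%). Such matches are letters in a window, and no measurement of binding was made here.

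To set JM1126 against the usual spread, the distance of its log2 CPM from the mean of the other 17 tumors was expressed in SDs of those tumors. By this measure Mre11a (12.3 SDs), Amotl1 (10.6), Fut4 (9.78), Cwc15 (9.44) and Med17 (8.99) ranked 1 to 5 among 16393 genes, and Ankrd49 (7.29) ranked 7. Endod1 and Taf1d followed at 5.62 and 4.89 SDs, on ranks 17 and 31. Smco4 (3.76 SDs, rank 100) and Panx1 (2.79 SDs, rank 396) stood lower, and both varied most among the other tumors, with an SD of 0.829 and 0.915 on the log2 scale against 0.249 for Mre11a. The members were picked for these values in JM1126, so the ranks describe the choice and are no test.

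**Figure D2:**
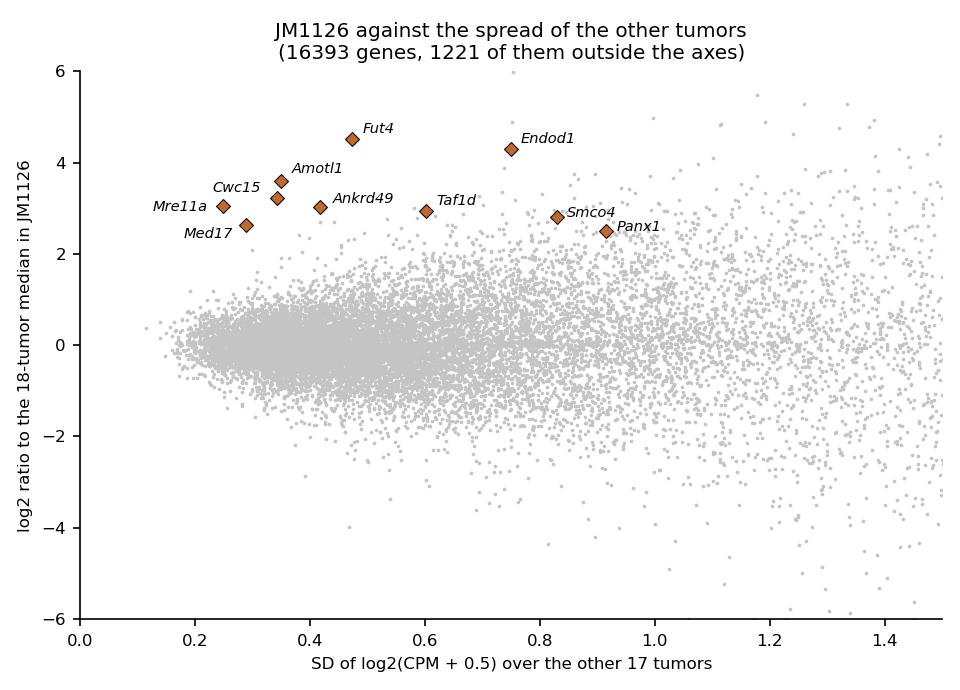
The log2 ratio to the 18-tumor median in JM1126 (vertical axis) against the SD of log2 CPM over the other 17 tumors (horizontal axis). Each of 16393 genes is 1 grey point, with 1221 of them outside the axes. The label of the horizontal axis names log2(CPM + 0.5), but 0.5 was not added for the SDs of the members. The 10 members are the diamonds along the upper left edge, from Mre11a at an SD of 0.249 to Panx1 at 0.915.

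Within the window most, but not all, neighbours shared the high level in JM1126. The table holds 63 genes of the window, of which 17 had a median of at least 1 CPM, and 7 of these are not among the 10. Of the 7, 5 were at least 2-fold above their median in JM1126 and highest there. These were Vstm5, an immunoglobulin-domain membrane protein (7.57-fold, 10.1 CPM), Slc36a4, an amino acid transporter (5.12-fold, 177 CPM), Cep295, a centriole protein (4.22-fold, 248 CPM), and the small nucleolar RNAs Scarna9 (6.58-fold, 29.7 CPM) and Gm24339 (5.37-fold, 102 CPM), which both lie inside Cep295 on its strand. Sesn3 and 4931406C07Rik were the exceptions. Sesn3, a stress-induced regulator of growth signalling at the left edge of the window (chr9:14186363-14244397), was at 1.20-fold, 193 CPM, and ranked 4 among the tumors. The gene 4931406C07Rik was at 0.977-fold, 97.2 CPM, with rank 10. Its first bases overlap those of Taf1d on the other strand, and Taf1d was at 7.64-fold in the same library. The last bases of Taf1d also overlap those of Cep295, and since the strand setting of the counting is not given in the sources used here, reads from overlapping stretches of such pairs may not be told apart.

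The other 46 genes of the window had a median below 1 CPM. Of these, 16 had at least 10 counts in JM1126 and 11 of the 16 were highest there, a count that the choice by reads in JM1126 favours and that supports nothing. The 4 examples given were named after their values were seen. The gene 1700012B09Rik had 726 counts and 23.2 CPM in JM1126 and at most 0.395 CPM, in JM663-T2, in any other tumor. Kdm4d, the divergent neighbour of Cwc15, was at 3.38 CPM in JM1126 and at most 0.745 CPM elsewhere. Both were highest in JM1126. Piwil4 had 4.15 CPM in JM1126 and 5.30 CPM in JM1233, and Hephl1, an iron oxidase gene, 0.926 CPM in JM1126 and 12.1 CPM in YZ7, so neither was highest in JM1126.

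Outside the window, high levels in JM1126 were seen to its left and not in the next genes measured to its right. Just inside the right edge Slc36a4 was at 5.12-fold, and 0.167 Mb beyond it Fat3, a large cadherin, was at 0.559-fold of a low median of 1.77 CPM. The next 2 such genes lie farther away than the window is long, Chordc1, a chaperone partner, at 2.50 Mb from the edge (0.785-fold, median 84.7 CPM) and Naalad2, a peptidase, at 2.53 Mb (0.948-fold, median 8.28 CPM). Where on the right the high levels end was thus read from 1 gene of low level. Just inside the left edge Endod1 was at 19.6-fold and Sesn3 at 1.20-fold. Further left, Fam76b (chr9:13739002-13766283), Cep57 and Mtmr2 were at 3.96-, 3.70- and 3.26-fold, and Ccdc82 and Jrkl, beyond them, at 4.12- and 5.55-fold. Maml2, a Notch coactivator that lies between Ccdc82 and Mtmr2, was at 1.83-fold.

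In these left neighbours JM1126 was second to another tumor. The MaP -/- tumor JM663-T2 had 13.6-fold for Jrkl, 10.2-fold for Ccdc82, 6.96-fold for Mtmr2, 7.71-fold for Cep57 and 7.56-fold for Fam76b. JM663-T1, from the same mouse, was between 1.05- and 1.58-fold for these 5 genes. For the 10 members, in contrast, the median fold of JM663-T2 was 1.43, and 2 of them were at least 2-fold above the median there, Endod1 (132 CPM) and Panx1 (31.5 CPM). The 2 tumors thus both had high levels left of Sesn3, and JM1126 had them also from Endod1 to Slc36a4, apart from 4931406C07Rik.

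A second group of chromosome 9 genes, around Yap1, lies 6.52 Mb to the left of Amotl1. Yap1, the coactivator that Amotl1 binds, was at 1.07-fold in JM1126 and at 9.88-fold in JM663-T2, and the apoptosis inhibitor Birc2 at 1.16-fold and 11.5-fold. Dync2h1 (0.989-fold) and Birc3 (1.67-fold) were also near their medians in JM1126, and Dcun1d5 was at 1.99-fold. The matrix metalloproteinase genes between them were high in both tumors. Mmp10 was at 252-fold in JM1126 and 224-fold in JM663-T2, and Mmp13 at 54.7- and 141-fold. Mmp3 was at 15.8- and 15.0-fold, and Mmp12 at 14.4- and 11.6-fold. Fibroblast markers were high in JM1126 as well, at 5.49- to 14.3-fold. The part in these values of the cells that express those markers was not tested. Of the 13 genes of this stretch with a median of at least 1 CPM, 5 (38.5%, beside 12% of all genes) were at least 2-fold above it in JM1126, all of them metalloproteinases, and Cfap300 was below at 0.425-fold. Between groups, edgeR called 3 of 15 genes tested, against 8.40% of all genes, when MaP R172H/- tumors were set against MaP -/- tumors. These were Mmp10, Mmp3 and Dcun1d5, all lower in MaP R172H/- (log2 -5.58, -2.72 and -2.87, edgeR FDR 0.0321, 0.0143 and 0.0474). The sizes rested on JM663-T2, where Dcun1d5 was at 27.1-fold against 0.876 to 1.34 in the other MaP -/- tumors. Without JM663-T2 the values were -1.89 for Mmp10 (edgeR FDR 0.187), -1.78 for Mmp3 (0.0274) and -0.56 for Dcun1d5 (0.0646), so that Mmp3 alone was called. Over the 13 fits that each left out 1 tumor Mmp3 was always called, while Mmp10 and Dcun1d5 were each lost in 8, without JM663-T2 and without any 1 of the 7 MaP R172H/- tumors.

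**Figure D3:**
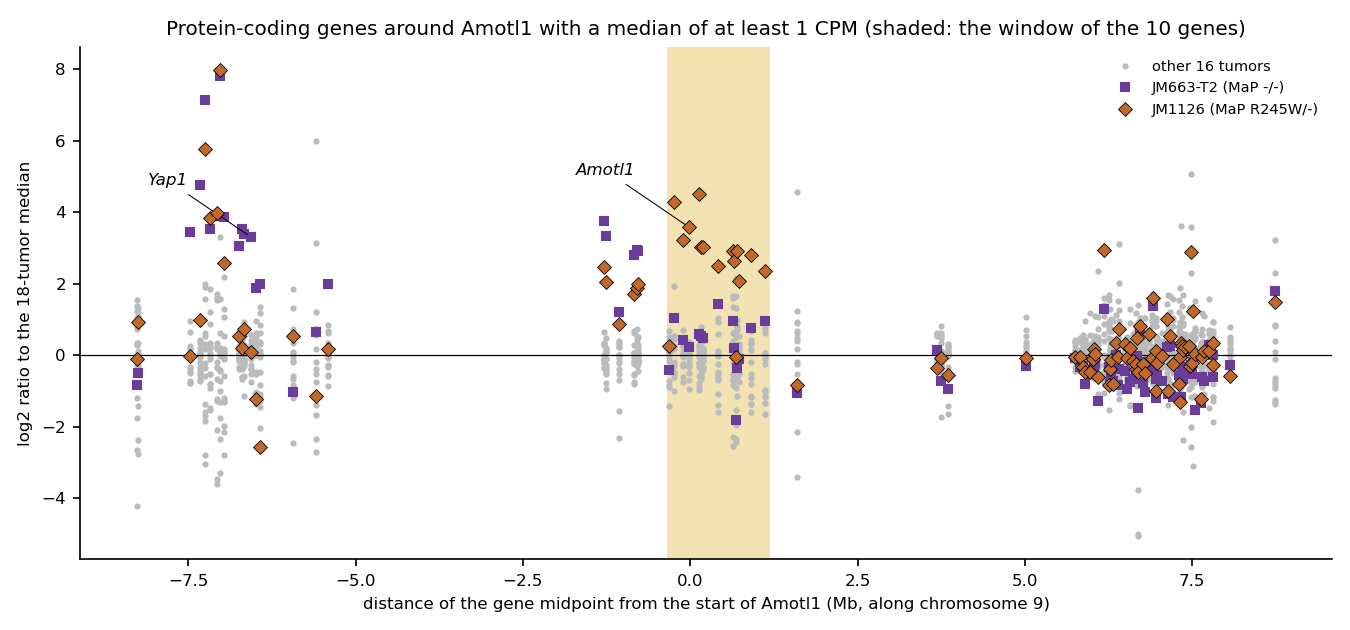
The log2 ratio to the 18-tumor median (vertical axis) of protein-coding genes with a median of at least 1 CPM, by distance of the gene midpoint from the start of Amotl1 in Mb (horizontal axis), for JM1126 (diamonds), JM663-T2 (squares) and the other 16 tumors (grey). Within the shaded window JM1126 is high apart from Sesn3 and 4931406C07Rik, and JM663-T2 is at least 2-fold above only for Endod1 and Panx1. Both are high just left of it. Around Yap1 JM663-T2 is high for most genes, but not for Trpc6 (0.494-fold), and JM1126 is high for metalloproteinase genes alone.

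All chromosomes were scanned in runs of 10 consecutive protein-coding genes with a median of at least 1 CPM, 13114 runs in all. The run with the highest median fold in JM1126 went from Fam76b to Vstm5, at 8.17-fold, with 9 of its 10 genes at least 2-fold above their median. Most genes of this run are members, picked for their levels in JM1126, so its first place describes the choice and is no test. The highest run elsewhere was on chromosome 5, from Cxcl5 to Rchy1 at 7.15-fold, with 7 of 10 genes. That run holds the ERBB ligands Ereg (56.3-fold), Areg (27.2-fold) and Btc (7.40-fold) and the chemokines Cxcl2 (24.2-fold) and Cxcl5 (6.92-fold), while Parm1 and Rchy1 in it were at 0.439- and 1.09-fold. The medians of its 10 genes ran from 1.09 CPM for Ereg to 40.4 CPM for Parm1, and those of the 10 members from 3.62 CPM for Smco4 to 324 CPM for Amotl1.

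Across the 18 tumors the 10 genes appeared tightly linked, and that link rested on JM1126. The 45 pairs had a median Pearson correlation of log2 CPM of 0.78 over 18 tumors, from 0.28 for Panx1 and Taf1d to 0.96 for Mre11a and Med17, and 42 pairs were above 0.5. Without JM1126 the median was 0.22 over 17 tumors, from -0.45 for Endod1 and Taf1d to 0.77 for Cwc15 and Med17, and 10 pairs were above 0.5. MaP R172H/- tumors were read on another instrument than the rest, and total counts differed between groups, so these values are descriptions. Without JM1126, log2(CPM + 0.5) of Cwc15, Mre11a and Med17 had a correlation of 0.82, 0.78 and 0.78 with the median of the 10 log2 ratios, and that of Endod1 0.26. Each gene is itself 1 of the 10 in that median, so part of its correlation is built in.

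Outside the window, the 10 genes whose log2(CPM + 0.5) was most like the median log2 ratio of the members over the 18 tumors were Plau, S100a7a, Eaf1, Klk6, Il1a, Klk8, Hmga2-ps1, Cyp4f16, Pold4 and Prdx5. Their Pearson correlations ran from 0.904 for Plau, which encodes the urokinase plasminogen activator, to 0.814 for Prdx5, a peroxidase. Without JM1126 they ran from 0.08 for Il1a, a cytokine, to 0.61 for Eaf1, an elongation factor partner, so the likeness of most of them also rested on JM1126. Plau was at 4874 CPM there, 63.3-fold its median. The kallikreins Klk6 and Klk8 were at 1379 and 357 CPM, 1262- and 171-fold above medians of 1.09 and 2.09 CPM. None of the 10 lies on chromosome 9.

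The groups were compared to ask whether the genotype of p53 went with the level of the block. Tests used edgeR's quasi-likelihood method over all genes that passed its filter on low counts, and all 10 members passed in each of the 3 fits. Since tumors within a group were separate samples but 2 mice gave 2 tumors each, p-values measure the spread between tumors.

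MaP R172H/- and MaP -/- tumors did not include JM1126, and no member was called between them. At a Benjamini-Hochberg FDR below 0.05, 8.40% of 20954 genes were called, and 0 of the 10 members by edgeR or by DESeq2, with 0 at an unadjusted p under 0.05. The median log2 fold change of the 10 was -0.05, against 0.00 over all genes tested, with 5 of 10 above 0. The estimates ran from -0.70 (SE 0.486) for Panx1 to 0.56 (SE 0.447) for Endod1. For Amotl1 the estimate was 0.23 (SE 0.195) and for Mre11a -0.13 (SE 0.160).

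Both other comparisons hold JM1126, whose values chose the members, so only the fits without it bear on the members, and the values with it are a description. Between MaP R245W/- and MaP -/- tumors without JM1126, edgeR called 0 of 21994 genes (0%), so that 0 of the 10 called says nothing about the members. Of all genes 2653 had an unadjusted p under 0.05 in this fit, and of the members 0. The median log2 fold change of the 10 was then 0.06, from -0.43 for Panx1 to 0.55 for Taf1d, with Fut4 at 0.01 (SE 0.344) and Amotl1 at 0.01 (SE 0.267). With JM1126 the median was 1.42 against 0.02 over all genes, all 10 estimates were above 0, the largest that of Fut4 (2.36, SE 0.884), and Amotl1 had 1.81 (SE 0.738). In that fit edgeR called 0 of 21452 genes (0%), none of them a member, with 2527 genes at an unadjusted p under 0.05. DESeq2 called 424 genes, gave a p for only 4 of the 10 members and called 0 of them.

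Between MaP R172H/- and MaP R245W/- tumors without JM1126, edgeR called 0 of the 10, beside 6.75% of 23024 genes (1554 genes), and 0 of the 10 had an unadjusted p under 0.05. Their median log2 fold change was -0.23, and Endod1, Cwc15 and Amotl1 had estimates above 0. Smco4 had the largest estimate in size, -0.90 (SE 0.460, FDR 0.257), followed by Endod1 at 0.67. With JM1126 the estimates of all 10 were below 0, with a median of -1.43 against 0.00 over all genes, and Fut4 (-2.70, SE 0.699), Smco4 (-1.82, SE 0.541) and Ankrd49 (-1.50, SE 0.461) passed the FDR, as did 9.40% of all 22481 genes tested. In a fit of the 12 mutant tumors alone 0 members passed (7.18% of all genes). The estimates hardly changed in it, at -2.71 for Fut4 (SE 0.809) and -1.82 for Smco4 (SE 0.579). That of Ankrd49 was -1.50 (SE 0.533). With no filter on low counts Fut4 alone passed (3.10%), and with tumors of 1 mouse summed Fut4 and Smco4 (8.79%). For Smco4 the 4 other MaP R245W/- tumors had 4.10, 4.47, 4.57 and 5.80 CPM, against 1.21 to 6.41 CPM in MaP R172H/- tumors.

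**Figure D4:**
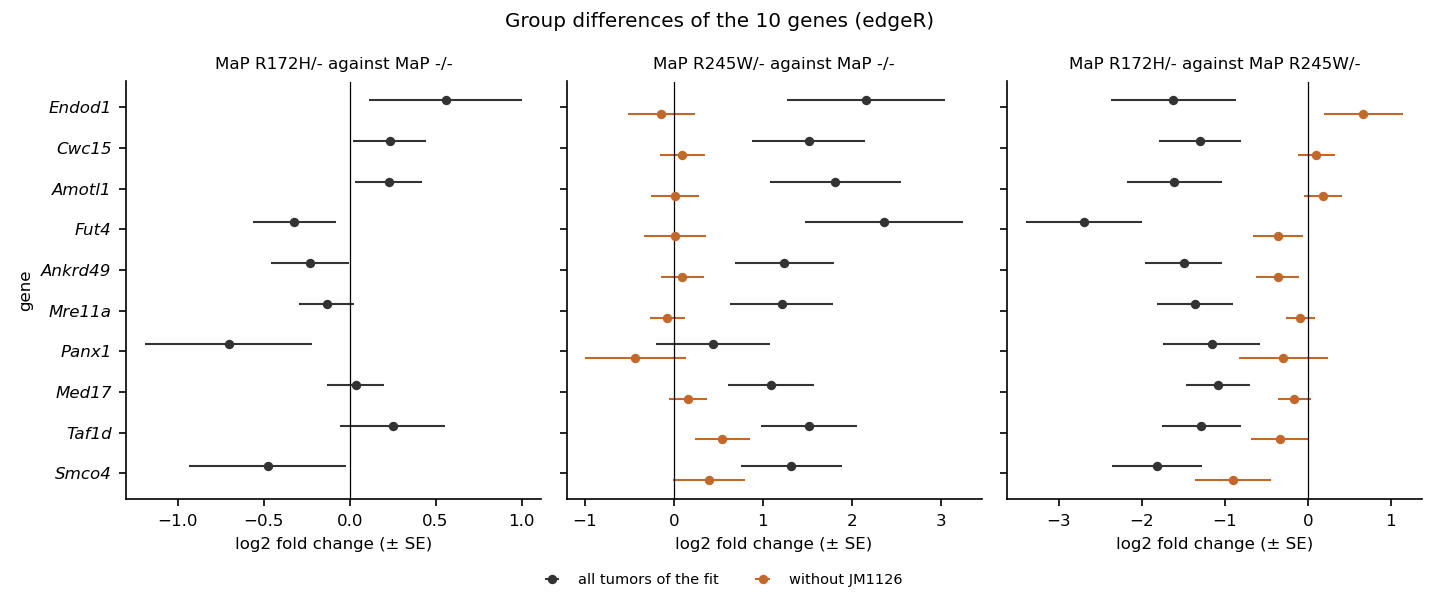
Log2 fold change ± SE of each member by edgeR in the 3 comparisons (horizontal axes differ), with all tumors (dark) and, where JM1126 was in the fit, without it (orange). The dark points of both comparisons with MaP R245W/- tumors lie to 1 side of 0. The orange points lie on both sides, from -0.90 for Smco4 to 0.67 for Endod1 between the mutants and from -0.43 for Panx1 to 0.55 for Taf1d between MaP R245W/- and MaP -/- tumors.

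Partners of Mre11a in the repair of DNA breaks were measured beside it in JM1126. Of 18 genes measured, 0 were at least 2-fold above their median there (12% of all genes), 2 were at least 2-fold below, near the 12.2% of all genes, Brca1 (0.498-fold, 34.6 CPM) and Chek1 (0.499-fold, 8.65 CPM), and the median was 0.626-fold. The other subunits of its complex, Nbn and Rad50, were at 0.990-fold (26.5 CPM) and 0.849-fold (61.7 CPM), and Dna2 was the highest at 1.23-fold. In the group tests 1 of 18 was called, in MaP R172H/- against MaP -/- tumors, a share below the 8.40% over all genes. This was the histone gene H2ax, higher by 1.34 (SE 0.319, FDR 0.0203) on the log2 scale in MaP R172H/- tumors, and not called without JM663-T2 (1.23, FDR 0.0507).

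Angiomotins and the Hippo pathway were mixed. Of 18 genes, 1 (5.56%, beside 12% of all genes) was at least 2-fold above its median in JM1126, the kinase gene Lats2 (2.07-fold, 44.6 CPM), and 3 (16.7%, beside 12.2% of all genes) were at least 2-fold below, among them Tead2 (0.290-fold, 24.6 CPM) and Amot (0.326-fold, 10.1 CPM), the namesake of the Amotl1 family. Sav1 was at 1.54-fold, and the list's median was 1.04-fold. Between groups, 2 of 18 were called in MaP R172H/- against MaP -/- tumors, beside 8.40% of all genes. The transcription factor gene Tead3 was higher (log2 0.89, SE 0.199, FDR 0.0146) and Mob1b was lower (-0.66, SE 0.179, FDR 0.0370). Leaving out each of 13 tumors in turn, Tead3 was always called and Mob1b was lost in 7 fits, among them without JM663-T2 (-0.62, FDR 0.0833). Against MaP R245W/- tumors both were called in the same directions (9.40% of all genes), with and without JM1126. Tead3 was lost without JM1233 or RM0014, with estimates of 0.70 to 0.89 over all fits that left out 1 tumor.

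Target genes of YAP and TEAD were more often high in JM1126. Of 21 measured, 10 were at least 2-fold above their median, or 47.6% against 12% of all genes, and 0 at least 2-fold below. Ankrd1 was at 139 CPM, 30.2-fold, with JM663-T2 next at 14.7-fold, and Igfbp3 at 1189 CPM, 4.76-fold. The matricellular genes Ccn1 and Ccn2 were at 3.03- and 2.14-fold, and F3 and Ptpn14 were below their medians at 0.730- and 0.713-fold. Several of the 10, such as Ccn2 and Ccdc80, are also expressed by fibroblasts, whose markers were high in this tumor as well. The part in these values of the cells that express those markers was not tested. Between groups, 2 of 22 were called, near the 8.40% over all genes: Fjx1 (log2 1.65, SE 0.449, FDR 0.0373) and Arhgef17 (0.83, SE 0.226, FDR 0.0370), both higher in MaP R172H/- than in MaP -/- tumors. With each of 13 tumors left out in turn, Fjx1 was lost in 8 fits and Arhgef17 in 10. Their estimates stayed at 1.24 to 1.80 and at 0.71 to 0.93 in these fits.

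Among the lists around the other members, counts in JM1126 are to be read beside the 12% of all genes at least 2-fold above and the 12.2% at least 2-fold below. Of 31 other Mediator subunits, 1 was at least 2-fold above, Med10 (2.07-fold, 74.0 CPM), and the median was 0.988-fold. Of 15 genes of RNA polymerase I initiation, none was 2-fold above or below, with Polr1d at 1.52-fold and Taf1a, a partner of Taf1d, at 0.618-fold. Of 16 genes of the Prp19-linked spliceosome none was 2-fold above or below either, from Aqr at 0.725-fold to Bud31 at 1.31-fold. Among 11 pannexin and ATP receptor genes, 2 were above, the microglia and platelet receptor gene P2ry12 (7.21-fold, 45.4 CPM) and Nt5e (2.95-fold, 551 CPM), which cleaves AMP to adenosine. Of 5 fucosyltransferase genes measured, Fut8, which makes core fucose, was at 3.12-fold (174 CPM) and Fut9, which like Fut4 makes Lewis x, at 0.0546-fold (0.606 CPM). Medians of both lists were 1.49- and 1.08-fold.

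Between MaP R245W/- and MaP -/- tumors edgeR called 0% of all genes, so the lists could not be compared there, and the 424 genes that DESeq2 called were not counted by list. In MaP R172H/- against MaP -/- tumors, where 8.40% of all genes were called, Med11, Med24, Med25 and Med29 were higher and Med6 lower, by 0.59, 0.66, 0.70, 0.75 and -0.69 on the log2 scale, that is 4 and 1 of 31. Ubtf and Polr1g were higher and Polr1d lower, 2 and 1 of 15, and P2rx1 and P2ry12 were lower, 2 of 12. None of 7 fucosyltransferase and none of 16 spliceosome genes was called by edgeR. Most of these calls were lost with 1 tumor left out: of 18 called in the 9 lists that are not cell markers, 3 (Med25, Tead3 and Mmp3) were called in all 13 such fits. In MaP R172H/- against MaP R245W/- tumors, with 9.40% of all genes called, Med6, Med7, Med21 and Med28, 4 of 31, were lower, and Polr1d, Polr1f and Taf1b, 3 of 15. Without JM1126, Med6, Med21, Med28 and Polr1d remained called, and Med7, Polr1f and Taf1b did not. Med15 (higher) and the spliceosome gene Bcas2 (lower) were added without JM1126. The log2 estimate of Med7 stayed at -0.80 to -0.62 over the 18 fits that each left out 1 tumor. Those of Polr1f and Taf1b stayed at -0.69 to -0.57 and at -0.89 to -0.67. P2ry12 was lower with JM1126 (log2 -2.15, SE 0.574, FDR 0.0249) and not called without it, though its estimate stayed at -2.41 to -1.67 over those 18 fits.

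**Figure D5:**
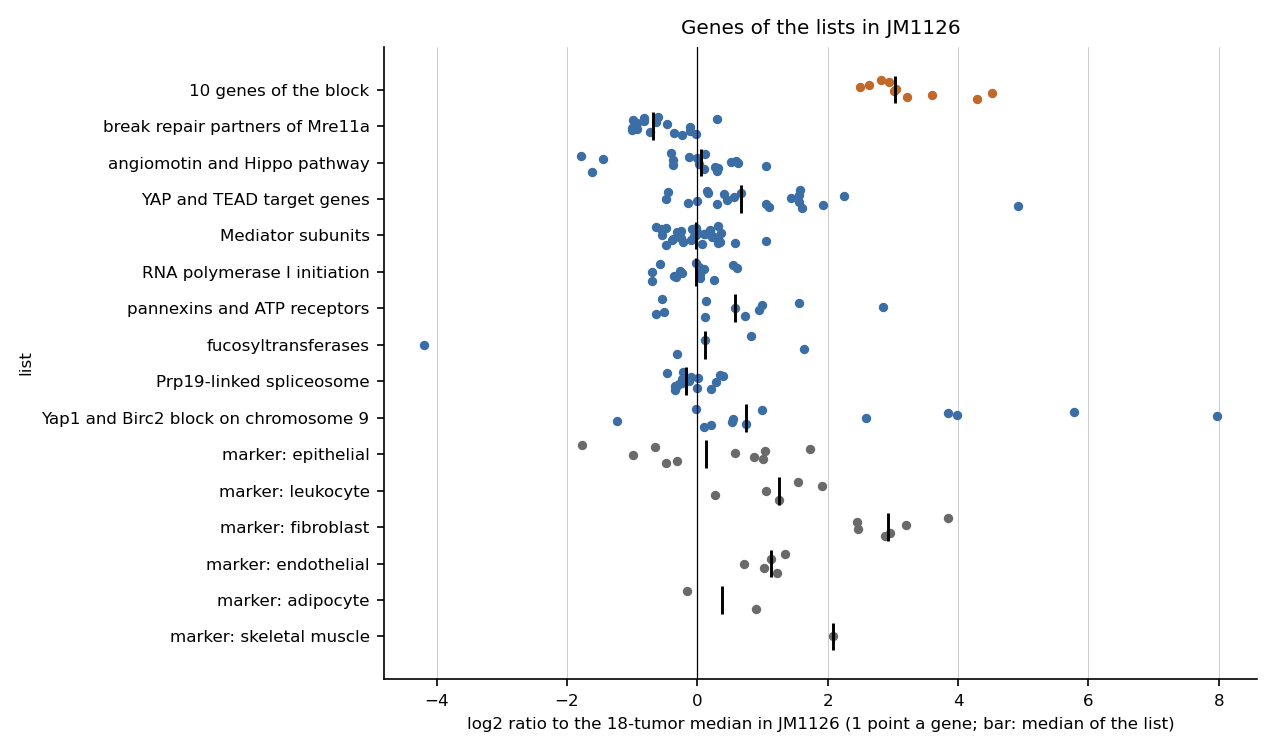
Log2 ratio to the 18-tumor median in JM1126 for every measured gene of the lists, 1 point a gene, with a bar at the median of each list. The 10 members lie between log2 ratios of 2.50 for Panx1 and 4.52 for Fut4, and of the other lists the fibroblast markers alone have a median near theirs, 7.59-fold.

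Markers of the cells that a tumor can hold also differed in JM1126. All 6 fibroblast markers were at least 2-fold above their median, against 12% of all genes, from 5.49-fold for Dcn to 14.3-fold for Lum, and their sum of 29008 CPM was the highest of the 18, above 13446 CPM in JM1233, with Col3a1 the most abundant at 11065 CPM. The 5 endothelial markers also summed highest, at 513 CPM, with 4 of 5 at least 2-fold above, and the leukocyte markers were second at 2592 CPM, with 4 of 5 measured at least 2-fold above and Lyz2 the most abundant at 1735 CPM. On total counts both fell to 2 of 5, and all 6 fibroblast markers were still at least 2-fold above. Epithelial markers summed to 4665 CPM, on rank 7, against a median of 3606 CPM. Of the 10 epithelial markers, 2 were at least 2-fold above their median and 1 at least 2-fold below, beside 12% and 12.2% of all genes. Krt7 was at 3.30-fold, Krt14 at 2.06-fold and Krt18, the most abundant at 1399 CPM, at 1.82-fold. Epcam was at 0.716-fold (425 CPM), Krt19 at 0.506-fold and Grhl2 at 0.293-fold. Adipocyte and skeletal muscle markers summed to 46.3 and 42.6 CPM, on ranks 7 and 3, against medians of 23.8 and 4.61 CPM. No marker of any list was below 0.1 CPM in this library. In bulk tumors fewer cells of a type and less RNA per cell cannot be told apart. Nor can bulk RNA tell whether tumor cells of JM1126, classed as a sarcoma, or other cells expressed the fibroblast markers. Between groups, Itgam, Lyz2 and Ptprc (3 of 8 leukocyte genes tested), Lum and Pdgfra (2 of 6 fibroblast) and Pecam1 (1 of 5 endothelial) were called lower in MaP R172H/- tumors when set against MaP -/- tumors, beside 8.40% of all genes, and Lum was lost without YZ2, YZ10 or JM833-T1 and Pdgfra without YZ2. Itgam and Lyz2 (2 of 8), Lum (1 of 6) and 5 of 5 skeletal muscle genes tested were called lower against MaP R245W/- tumors, beside 9.40% of all genes. Without JM1126 Lyz2 and the 5 muscle genes were still called. The epithelial marker Krt5 was then added as higher in MaP R172H/- tumors (1 of 10, beside 6.75% of all genes). Without JM1233 Itgam, Lyz2, Lum and Myh4 were not called. Over the 18 fits that each left out 1 tumor, Itgam was lost in 11, Lum in 7, Myh4 in 5 and Lyz2 in 1. The part of cell composition in the levels of the 10 genes was not tested.

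JM1233, next after JM1126 for fibroblast markers, had 13446 CPM of them, below the 29008 CPM of JM1126. It was the highest tumor for leukocyte markers, at 5227 CPM, and had a median fold of 0.952 for the 10 genes. JM833-T1, next after JM1126 for endothelial markers at 430 CPM, had a median fold of 0.798. Both tumors were picked by their marker sums, and whether cell composition bears on the levels of the 10 genes was not tested.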

How the data were processed

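Total RNA of 18 tumors was depleted of ribosomal RNA (Ribo-Zero, stranded libraries), and the authors aligned reads with STAR 2.7.10b to GRCm39 and deposited whole-number estimated counts per gene from RSEM 1.3.3 with GENCODE M34 (expected counts, not normalized). Authors' notes also name FastQC 0.11.9. Coordinates came from GENCODE M39, in which 56620 of 57126 genes were found by identifier, and the 506 others held at most 0.0464% of a tumor's counts. CPM used TMM library sizes. Group tests used edgeR 4.0.16 in R 4.3.3 (filterByExpr, TMM, quasi-likelihood F-test, Benjamini-Hochberg FDR below 0.05 over all genes tested). Both comparisons with MaP -/- tumors had a fit of their own, and the mutants were compared in 1 fit of 18 tumors with no covariate. DESeq2 1.42.0 was an alternative. The fits were also run on simulated counts, drawn independently for each tumor with no outlying tumor, and the outcome is not given here. Those runs do not bear on JM1126 or on tumors that share a mouse. The rest used Python 3.11.15 with pandas 2.3.3, numpy 2.4.6 and matplotlib 3.10.9.

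Other settings were library sizes from DESeq2 or total counts, filters on low counts, a fold threshold, tumors of 1 mouse summed, other samples in the fit and each tumor left out in turn. Genes named were the 10 members, other genes of the window with a median of at least 1 CPM, the 3 nearest such protein-coding genes outside each edge, the 10 most similar genes elsewhere, and of each list the called genes and the 2 highest and 2 lowest ratios in JM1126. Further genes (1700012B09Rik, Kdm4d, Piwil4, Hephl1, Jrkl, Ccdc82, Maml2, genes of the Yap1 stretch and of the chromosome 5 run, and Rad50, Ccn1, Ccn2, Ccdc80 and Epcam) were named after their values were seen. The members and the 15 gene lists were chosen with earlier results of these data known. The labels name JM779-T1 and JM836-T1 where the study marks the other tumor of those mice as sequenced.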

Additional observations from a re-analysis of the deposited data

Results flagged for a closer look

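For each gene and for the median fold of the 10, the highest and lowest tumor of each group were set against Dixon's critical value at 95%, 33 groups in all. Chance flags about 1 in 20 groups. Of the 33, 16 were flagged, 11 of them for JM1126, for which the genes were chosen. Those 11 were fixed by that choice, so the total of 16 is not to be set against chance.

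In MaP R245W/- tumors the values of JM1126 chose the members, so its flags are a description and no test. The values, with those of the other 4 tumors, were Endod1 at 1267 CPM (others 42.4 to 77.4), Cwc15 at 745 (68.0 to 94.1), Amotl1 at 3906 (202 to 379), Fut4 at 196 (4.38 to 12.9), Ankrd49 at 204 (22.9 to 43.5), Mre11a at 405 (39.2 to 56.0), Panx1 at 66.0 (7.31 to 24.2), Med17 at 283 (39.6 to 70.0), Taf1d at 2421 (268 to 632) and Smco4 at 25.4 (4.10 to 5.80). The median fold of JM1126, built from the same values, was 8.17 against 0.879 to 1.19.

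In MaP R172H/- tumors YZ7 stood apart for 3 members, with Cwc15 at 130 CPM (others 78.6 to 81.0), Mre11a at 65.3 CPM (37.2 to 48.1) and Med17 at 69.9 CPM (39.3 to 46.5). YZ11 stood apart for Endod1 at 249 CPM (44.8 to 132) and YZ4 for Smco4 at 6.41 CPM (1.21 to 3.20).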

How the results depend on the processing

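The median fold of the 10 genes in JM1126 was 8.17, and under the 5 other settings it ran from 7.01 with total counts to 9.55 with the mean of the log2 ratios, against at most 1.45 in any other tumor. Leaving out each other tumor from the reference gave 7.83 to 8.55. No member was called in either comparison with MaP -/- tumors under any setting, tumors left out in turn included (0 to 0 members). In the comparison of the mutants, where 3 were called, 1 was called with no filter on low counts and 0 in a fit of the 12 mutant tumors. The number was 0 without JM1126, with 1554 genes called in all, and without 1 other tumor it ran from 1 to 5, with 1525 to 2362 genes called in all. The causes of these differences were not tested. Without JM1233 the 5 and without YZ2, YZ3, YZ6, YZ10 or YZ11 the 1 differed by over 1.5 times from 3. DESeq2 gave a p for 5 members and called 2 of them. Over all genes, the calls in MaP R172H/- against MaP -/- tumors were 1760, and 3432 with DESeq2, 1051 with a log2 fold change of at least 1, 1126 with tumors of 1 mouse summed and 1067 without JM663-T2. In MaP R245W/- against MaP -/- tumors they were 0, and 424 with DESeq2, 2 in 1 fit of 18 tumors, and at most 3 with a tumor left out. Between the mutants they were 2114, and 3699 with DESeq2, 1401 with at least 10 counts in every tumor and 1392 with the fold threshold. In JM1126, levels at least 2-fold above the median were reached on total counts by 8 YAP and TEAD target genes, 6 fibroblast, 2 leukocyte, 2 endothelial and 1 epithelial markers, and by 0 genes of the Hippo and Mediator lists. Of the list genes called, markers included, 24 in MaP R172H/- against MaP -/- tumors and 18 between the mutants, 10 to 20 and 12 to 18 stayed called when 1 tumor was left out. The 10 were without JM663-T2 and the 12 without JM1126 or JM1233, and 12 to 15 of the 24 were left without YZ2, YZ3, YZ4, YZ6 or YZ10. These list settings were chosen after seeing the data. No paired analysis was possible because replicate numbers were given in the order of the samples and mark no shared mouse or day.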
